A study of Saccharomyces cerevisiae with 4 samples.

Results

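The genes described here encode 51 assembly factors of the large (60S) ribosomal subunit of the yeast Saccharomyces cerevisiae. They were taken from a list of current gene symbols and found through the open reading frame given for each array feature, and all 51 were measured, out of 5132 genes tested. The data were 4 Affymetrix Yeast Genome S98 arrays of the laboratory strain BY4741, a haploid strain with deletions in HIS3, LEU2, MET17 and URA3 that both groups share. In both groups, cells in mid-exponential growth in MM4 medium were moved into fresh medium and kept there for 15 min. The 2 control arrays (control 1 and control 2) came from cells without drug, and the 2 quinine arrays (quinine 1 and quinine 2) from cells with quinine, an alkaloid used against malaria, at 1 g/L. The drug was added in ethanol, at 0.7% by volume, and no source used here says if controls had ethanol too, so its part in any difference was not tested. The comparison addressed the early response of the cells to the drug. Nothing in the labels says that the 2 arrays of a group came from separate cultures, so a p value reflects how far these arrays differ, and that difference may be technical.

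Large subunit assembly begins in the nucleolus, where the new ribosomal RNA is folded, chemically modified and trimmed while ribosomal proteins are added. Assembly factors bind the particle in a set order and leave it again: RNA helicases and scaffold proteins act in the nucleolus, GTPases and methyltransferases act as the particle matures and moves to the nucleoplasm, and shuttling proteins take it through the nuclear pore to the cytoplasm. In yeast these genes belong to the ribosome biogenesis regulon, which is known to be turned on and off together with growth. For the comparison by stage, 31 members were placed as early nucleolar factors, 10 as middle factors, 5 as export-stage factors, and 5 that act outside this order or span it were left unplaced.

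A value is the deposited signal of a gene's probe set on 1 array, in linear intensity units, and a log2 fold change is the mean log2 signal with quinine minus that in controls. The array medians lay between 596 and 636 over 7519 probe sets, and the middle one of all 5132 genes tested had a log2 fold change of -0.02. All 51 members were called Present, the array software's detection call, on all 4 arrays. As a check of the strain, which is of mating type a, all 7 a-cell genes were Present on all 4 arrays, at signals from 169 to 15076. Of 4 genes listed for the other mating type 2 were Present on all 4 arrays, and the signals of the 4 lay between 27.4 and 656. A Present call or a signal in that range thus does not by itself show that a gene is expressed. The signals of some members, such as SSF1, MAK21 and NOP12, lie in that range. A lower signal in such a bulk sample cannot tell fewer cells with a transcript from less transcript per cell.

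Transcripts of 50 of the 51 factors were lower with quinine than in controls, against 53.3% of all genes. The median log2 fold change of the 51 was -0.87, which left the middle member at 54.9% of its control signal. In 47 of the 51 the groups were fully separated, each quinine array being under each control array, against 29.8% of all genes. The log2 fold change was under -1 in 16 members, against 1.27% of all genes. In limma, a linear model with a pooled variance estimate fitted over all 5132 genes, 0 members had a Benjamini-Hochberg adjusted p under 0.05, where 0.0195% of all genes were called in either direction. At an unadjusted p under 0.05, 42 members were lower, against 12.0% of all genes. The count past the adjusted p was 4 without control replicate 1 (MAK21, RRP14, RRP15 and SSF2), where 0.312% of all genes were called as lower. It was 2 without control replicate 2 (SSF1 and SSF2), where 0.0779% of all genes were called as lower. The count at the unadjusted p was 27 without quinine replicate 2, against 4.91% of all genes in the same fit. Adjusted p values of the members lay between 0.0673 and 0.898, so no single factor was called as changed in this fit, and the values that follow are differences in signal with their standard errors.

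**Figure D1:**
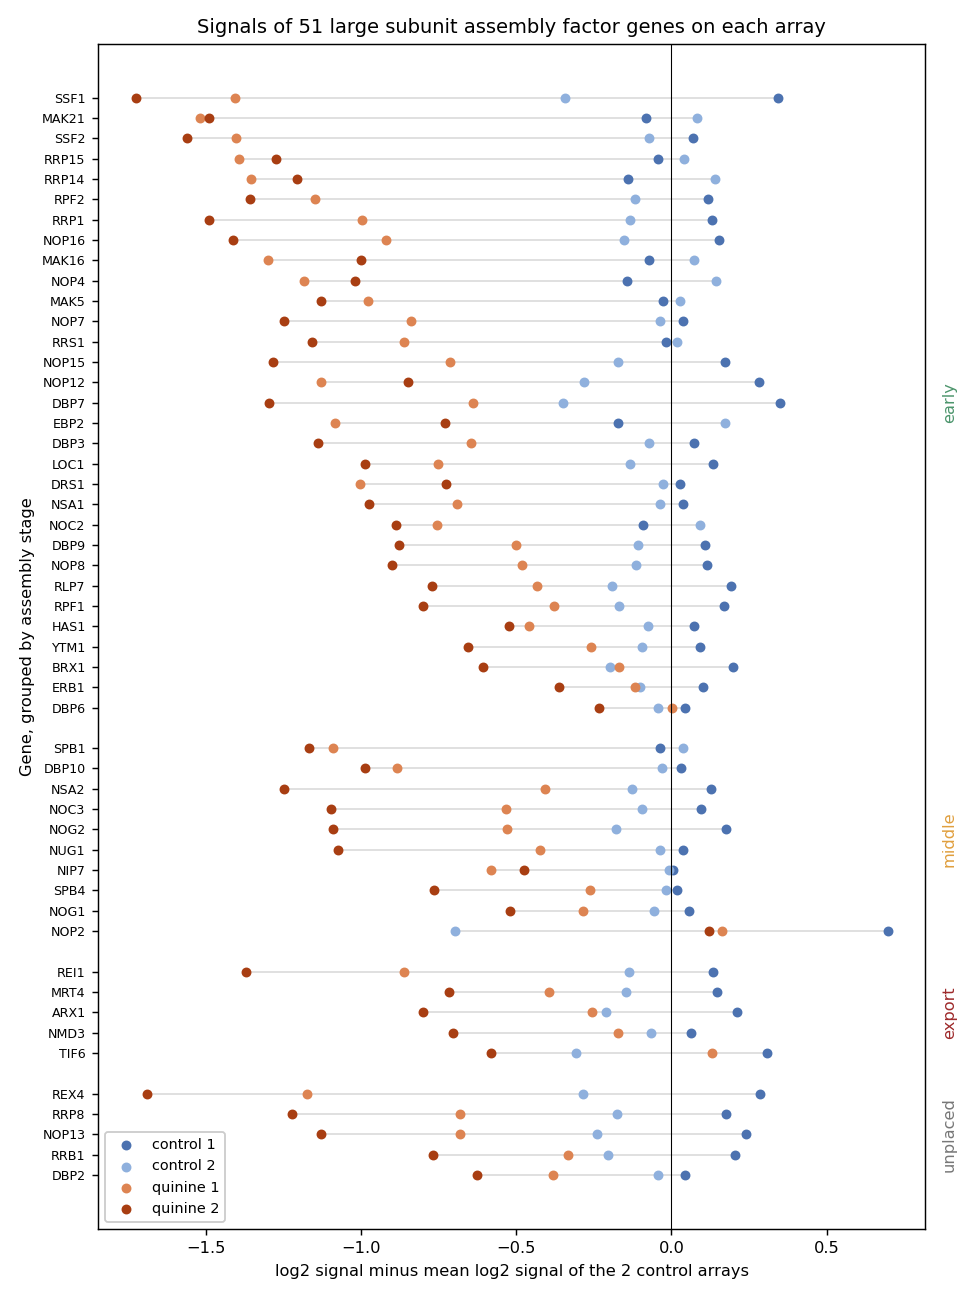
Signal of each of the 51 genes on each array, as log2 signal minus the mean of the 2 control arrays (horizontal axis), with genes grouped by assembly stage and sorted by fold change (vertical axis). Blue points are control arrays and orange or brown points quinine arrays. In 47 genes both quinine points lie left of both control points, and in NOP2 the 2 control points stand farther apart than in any other member.

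The early nucleolar factors were all lower, 31 of 31, against 53.3% of all genes. Their median log2 fold change was -0.97 (range -1.57 to -0.12). The groups were fully separated in 29 of them, against 29.8% of all genes, and 13 had a log2 fold change under -1, against 1.27%. SSF1 (YHR066W), a nucleolar protein of the Brix family needed for processing of the large subunit RNA, had signals of 523 and 324 in controls against 155 and 124 with quinine. Its mean signal was 423 ± 140 in controls and 139.8 ± 21.7 with quinine (SD of 2 arrays), and the groups did not overlap. Its log2 fold change of -1.57 ± 0.27 (SE) was the lowest of all 5132 genes, with an adjusted p of 0.0822 in limma.

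The second lowest of the 5132 genes tested was also an early factor. MAK21 (YDR060W), known too as Noc1, forms a complex with Noc2 on the earliest large subunit particles. Its signals were 261 and 292 in controls against 96.3 and 98.3 with quinine. The 2 quinine arrays were nearly level with each other and far below both controls, at a log2 fold change of -1.50 ± 0.17 (SE) and an adjusted p of 0.0673 in limma. RRP15 (YPR143W), a constituent of early nucleolar particles, had signals of 516 and 547 in controls against 202 and 219.6 with quinine. This put RRP15 at 39.7% of control, with a log2 fold change of -1.33 ± 0.16 (SE) and an adjusted p of 0.0697 in limma.

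SSF2 (YDR312W) is a close paralog of SSF1, and 2 probe sets measured it. The brighter one read 563 and 510.5 in controls and 203 and 182 with quinine, a log2 fold change of -1.48 ± 0.17 (SE). The dimmer one read 116 and 111 in controls and 49.8 and 68.2 with quinine, a log2 fold change of -0.96, and it was called Present on 3 of the 4 arrays. Both probe sets read lower on each quinine array than on either control array. The name of the brighter probe set marks it as shared within a gene family, so RNA of SSF1 and SSF2 may not be told apart by it, and its value is uncertain for SSF2 alone.

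The other early factors were less reduced than SSF1, MAK21, RRP15 and the brighter probe set of SSF2. RRP14 and RPF2 still ranked 12 and 14 from the lowest of all 5132 genes. RPF2, which with RRS1 brings the 5S RNA and its proteins into the particle, had signals of 3404 and 2893 in controls against 1417 and 1226 with quinine. RRP14 had signals of 1137 and 1381 in controls against 490.4 and 543 with quinine. Log2 fold changes were -1.25 for RPF2 and -1.28 for RRP14, each with a standard error of 0.18, and in both genes the quinine arrays lay well below the controls. NOP16 and NOP4 had log2 fold changes of -1.17 and -1.10, the latter an RNA-binding protein of the early particle. NOP15, which binds the spacer RNA at the foot of the particle, and NOP12, an RNA-binding protein that helps the particle's RNA to fold, were at -1.00 and -0.99. NOP12 was among the dimmest members, with signals of 190.0 and 128 in controls against 71.5 and 86.8 with quinine. LOC1, a nuclear RNA-binding protein also known for its part in localising ASH1 messenger RNA, was at -0.87, and RLP7, which resembles a ribosomal protein, at -0.60.

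The remaining early factors filled the range between these. RRS1, the partner of Rpf2, had signals of 1691 and 1733 in controls against 941 and 767 with quinine. NOP16 had signals of 642 and 519.5 in controls against 305 and 217 with quinine. Neither gene had overlapping groups. NOP4 had signals of 1294 and 1579 in controls against 629 and 706 with quinine, and unlike most members its higher array was the second of each group. NOP15 had signals of 3463 and 2723 in controls against 1874 and 1263 with quinine, lower on each quinine array but with a wide spread in each group. LOC1 had signals of 1476 and 1225 in controls against 798 and 678 with quinine. RLP7 had signals of 2751 and 2108 in controls against 1785 and 1412 with quinine. LOC1 was well separated, while in RLP7 quinine 1 came nearer to control 2.

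EBP2, a nucleolar protein, had signals of 414 and 526 in controls against 220.3 and 282 with quinine, at an adjusted p of 0.124 in limma. NOC2, the shared partner of Mak21 and Noc3, had signals of 904 and 1027 in controls against 571 and 521 with quinine. Both genes were fully separated, and in both control 2 was the higher control. NOP8, an RNA-binding protein of the first particles, had signals of 603 and 515 in controls against 400 and 299 with quinine. Its log2 fold change was -0.69 ± 0.21 (SE), a smaller difference than in most early genes.

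At the other end of the early group, 2 members stood near their control levels. DBP6 (YNR038W), an RNA helicase of the first particles, had signals of 1867 and 1755 in controls against 1811 and 1540.2 with quinine. The groups overlapped, and the log2 fold change was -0.12 ± 0.17 (SE), reaching 0.00072 without quinine replicate 2. Leaving out control replicate 1 gave -0.07 for DBP6, and leaving out quinine replicate 1 gave -0.23. ERB1 (YMR049C), a scaffold protein, had signals of 5616 and 4880.5 in controls against 4823 and 4071 with quinine. Its groups did not overlap, but quinine 1 lay only just under control 2, and the log2 fold change was -0.24 ± 0.15 (SE). For ERB1 it was -0.12 without quinine replicate 2 and -0.36 without quinine replicate 1, and leaving out control replicate 1 gave -0.14. BRX1, a Brix family protein, had signals of 4590 and 3494 in controls against 3565 and 2632 with quinine, so quinine 1 lay above control 2. The groups overlapped, with a log2 fold change of -0.39 ± 0.21 (SE).

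Of the 10 middle factors 9 were lower, against 53.3% of all genes. In the same 9 the groups were fully separated, against 29.8% of all genes. The stage median was a log2 fold change of -0.78, or -0.48 without quinine replicate 2. SPB1 (YCL054W), a methyltransferase of the large subunit RNA, had the lowest value of the stage. Its signals were 744 and 784 in controls and 359 and 340.4 with quinine, so it stood at 45.7% of control. Its log2 fold change was -1.13 ± 0.16 (SE), with an adjusted p of 0.0783 in limma. The arrays of each group differed little, and the groups stood wide apart. The helicase gene DBP10 (YDL031W) showed the same tight pattern, with signals of 1407 and 1347 in controls against 746 and 695 with quinine, and a log2 fold change of -0.94 ± 0.16 (SE).

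Other middle factors had quinine arrays that differed more from each other. NSA2 (YER126C), a particle constituent, had signals of 3823 and 3203 in controls against 2637 and 1473 with quinine. Its log2 fold change was -0.83 ± 0.29 (SE), and quinine 1 was much nearer to the controls than quinine 2 was. It was -0.41 without quinine replicate 2 and -1.25 without quinine replicate 1. NOC3 (YLR002C), the partner of Noc2 on later particles, had signals of 674 and 591 in controls against 437 and 295 with quinine, a log2 fold change of -0.81 ± 0.23 (SE) that was -0.53 without quinine replicate 2. The same split between the quinine arrays was seen in NUG1, a GTPase, with signals of 3214 and 3049.7 in controls against 2336 and 1488 with quinine.

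The 3 GTPases all had lower signals on both quinine arrays than on either control array, against 29.8% of all genes. NOG2 (YNR053C) was measured by probe sets to both of its exons. The exon 1 probe set read 1480.0 and 1443 in controls and 753 and 658 with quinine, and the exon 2 probe set read 4547 and 3558 in controls and 2784 and 1887 with quinine. Both exons were lower with quinine, with log2 fold changes of -1.05 and -0.81, the latter -0.53 without quinine replicate 2. NOG1 (YPL093W), which joins in the nucleolus and stays until the cytoplasm, had signals of 4797 and 4436 in controls against 3786 and 3220.4 with quinine, a smaller log2 fold change of -0.40 ± 0.14 (SE). NUG1 was at -0.75 ± 0.24 (SE).

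NOP2 (YNL061W), a methyltransferase for cytosines of the large subunit RNA, was the 1 member of the 51 with a positive log2 fold change. Its signals were 2429 and 924 in controls and 1678 and 1628 with quinine, so the quinine arrays were close to each other and lay between 2 widely separated controls. The log2 fold change was 0.14 ± 0.44 (SE), the largest standard error of the members. Its direction rests on single control arrays: leaving out control replicate 2 gave -0.56, and leaving out control replicate 1 gave 0.84. In the authors' deposited table, which takes the ratio of arithmetic means, the fold of NOP2 was -1.01, on the other side of no change. NIP7 (YPL211W), known as a binding partner of Nop2, had signals of 2291 and 2270.5 in controls against 1523 and 1641 with quinine, with no overlap and a log2 fold change of -0.53 ± 0.15 (SE).

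All 5 export-stage factors were lower, against 53.3% of all genes, and their median was -0.53 on the log2 scale. Leaving out control replicate 1 gave -0.37 and leaving out control replicate 2 gave -0.70. Leaving out quinine replicate 1 gave -0.71, and leaving out quinine replicate 2 gave -0.25. REI1 (YBR267W), a cytoplasmic protein that helps to release Arx1 from the particle, was the lowest. Its signals were 1054.5 and 874 in controls and 528 and 371 with quinine, a log2 fold change of -1.12 ± 0.23 (SE) with an adjusted p of 0.0991 in limma. The probe set of REI1 has a name that marks possible sharing with other transcripts.

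The remaining 4 export-stage genes differed less. ARX1 (YDR101C), a shuttling factor at the exit of the protein tunnel, had signals of 3046 and 2273 in controls against 2205 and 1513 with quinine. NMD3 (YHR170W), the adaptor that links the particle to the exportin Crm1, had signals of 3759 and 3439 in controls against 3189.7 and 2207 with quinine. In both genes quinine 1 lay only a little below control 2, and their log2 fold changes were -0.53 ± 0.25 and -0.44 ± 0.21 (SE). Without quinine replicate 2 the value of ARX1 was -0.25 and that of NMD3 -0.17. Without quinine replicate 1 they were -0.80 and -0.70, and ARX1 was at -0.32 without control replicate 1. MRT4 (YKL009W), which holds the place of a stalk protein until late in assembly, had signals of 5025 and 4103 in controls against 3456 and 2766 with quinine, at -0.55 ± 0.18 (SE). TIF6 (YPR016C), which keeps the large subunit from joining the small one until it is mature, had signals of 6717 and 4388 in controls against 5946 and 3631 with quinine. Its groups overlapped, and its log2 fold change of -0.22 ± 0.30 (SE) became 0.08 without control replicate 1, and it became 0.13 without quinine replicate 2. It was -0.53 when control replicate 2 was left out and -0.58 when quinine replicate 1 was.

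**Figure D2:**
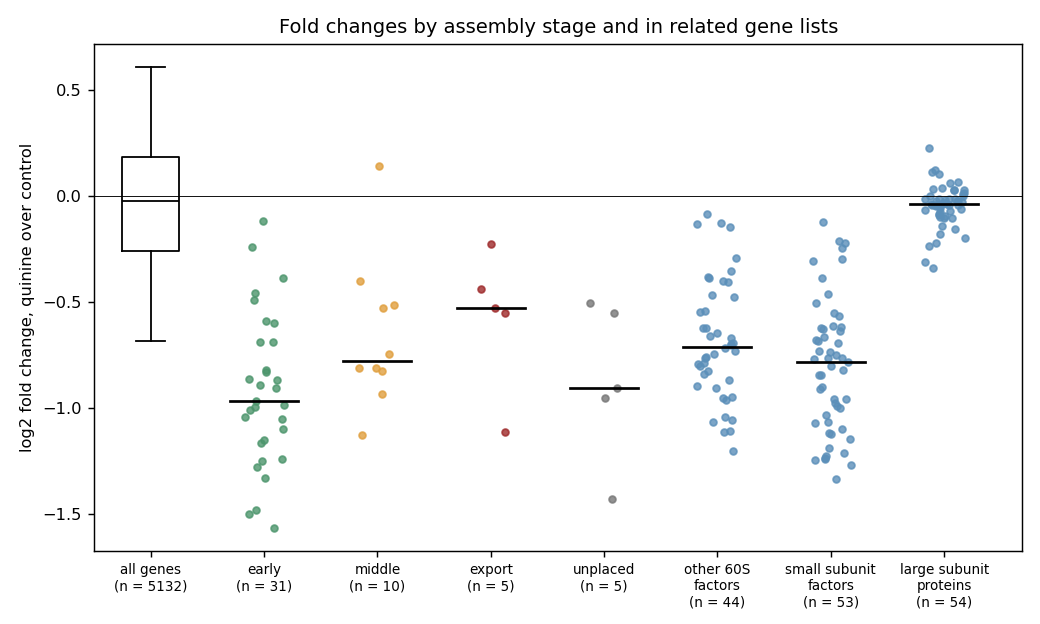
Log2 fold change of each gene (points) by assembly stage, in other assembly factor lists and in the large subunit ribosomal proteins, with black bars at the medians. The box gives the median and quartiles of all genes and its whiskers the 5th and 95th percentiles. The median was -0.97 for early, -0.78 for middle and -0.53 for export-stage factors, and -0.04 for large subunit proteins.

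By stage, the medians were thus ordered from early to middle to export, with wide overlap of the single genes. On the separate arrays, the median level relative to the control mean was -0.84 for early, -0.48 for middle and -0.25 for export-stage genes on quinine 1. On quinine 2 it was -1.00 for early, -1.03 for middle and -0.71 for export-stage genes. The export-stage median was the least reduced on both arrays, while early and middle genes were about level on quinine 2. Means in place of medians gave another order on quinine 2. Middle and export-stage genes were level there at -0.83, and early genes were at -1.02. The early minus export gap in means was -0.51 on quinine 1 and -0.19 on quinine 2. The early median minus the export median was -0.58 on quinine 1 and -0.29 on quinine 2, against -0.07 and 0.07 on the control arrays. The gap in the fitted values was -0.44, and leaving out control replicate 2 or quinine replicate 1 gave -0.29. No test of the difference between stages was made, since the genes of a stage are not replicates, and the export stage holds 5 genes.

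**Figure D3:**
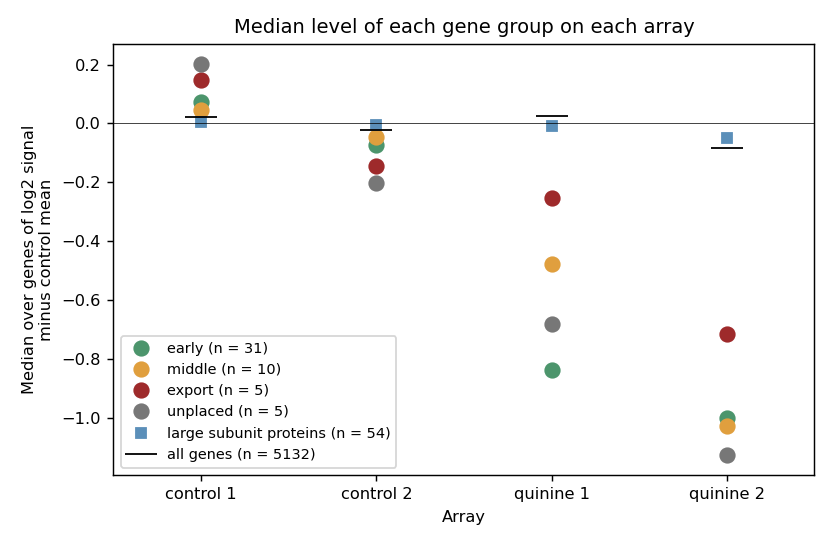
Median over genes of the log2 signal minus the control mean, for each group of genes (colours and symbols) on each of the 4 arrays. On both quinine arrays every assembly stage lies below -0.25, while large subunit proteins and all genes stay between -0.09 and 0.03.

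The unplaced members were lower in 5 of 5, against 53.3% of all genes. Their groups were fully separated in all 5, against 29.8% of all genes. REX4 (YOL080C), a putative RNA exonuclease, had signals of 1962 and 1322 in controls against 713 and 499 with quinine, a log2 fold change of -1.43 ± 0.28 (SE) and the fifth lowest of all genes. RRP8 (YDR083W), a base methyltransferase of the large subunit RNA, had signals of 2308 and 1807 in controls against 1274 and 874 with quinine. Control 1 was above control 2 and quinine 1 above quinine 2 in both genes. RRB1 (YMR131C), the dedicated chaperone of ribosomal protein Rpl3, had signals of 3913 and 2951 in controls against 2695 and 1994 with quinine, at -0.55 ± 0.22 (SE). For RRB1 leaving out quinine replicate 2 gave -0.33, and leaving out control replicate 1 gave -0.35. NOP13 (YNL175C), a nucleolar protein with RNA recognition motifs, had signals of 2603 and 1865 in controls against 1373 and 1008 with quinine, at -0.91 ± 0.25 (SE). Values of RRB1 and NOP13 with quinine did not reach up to the controls on either array.

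DBP2 (YNL112W), a helicase with further roles in messenger RNA metabolism, was read by probe sets to both of its exons. The exon 2 probe set, the brighter, had signals of 8170 and 7685 in controls against 6079 and 5138 with quinine, and the exon 1 probe set 7685 and 6800 against 5208 and 3978. Both exons were lower without overlap, with log2 fold changes of -0.50 for exon 2 and -0.67 for exon 1. In DBP2 and NOG2 alike the exon 1 probe set had the lower value, and the difference between exons was not tested.

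By protein class, the 10 DEAD-box RNA helicases, enzymes that unwind or remodel RNA, had a median log2 fold change of -0.78. They ran from MAK5 at -1.05 through DBP7 at -0.97, DBP10 at -0.94, DBP3 at -0.89, DRS1 at -0.87, DBP9 at -0.69, SPB4 at -0.51, DBP2 at -0.50 and HAS1 at -0.49 to DBP6 at -0.12. The helicase genes differed in level and in spread. MAK5 had signals of 1362 and 1413 in controls against 705 and 634 with quinine. DRS1 had signals of 554 and 533 in controls against 271 and 328 with quinine. In both the controls were nearly level and the quinine arrays far lower. DBP3 had signals of 2295 and 2074 in controls against 1395 and 990 with quinine, and DBP9 had 3189 and 2741 in controls against 2088 and 1608 with quinine. SPB4 had signals of 1904 and 1859 in controls against 1569 and 1108 with quinine, and HAS1 had 3177 and 2867 in controls against 2198 and 2102 with quinine. None of these 6 genes had overlapping groups, where 29.8% of all genes had both quinine arrays below both control arrays. The 5 Brix family proteins had a median of -1.25, with SSF1, SSF2 and RPF2 all under -1 and RPF1 and BRX1 at -0.59 and -0.39. The dimmer probe set of SSF2, at -0.96, would itself be the median in place of the brighter one. The 3 Noc proteins were at -1.50 for MAK21, -0.82 for NOC2 and -0.81 for NOC3. DBP7 had a wide spread within each group, with signals of 1604 and 986 in controls against 807 and 512 with quinine, so its standard error was 0.32.

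Genes whose products act in 1 complex did not always have like values. In the complex of Nop7, Erb1 and Ytm1, which is needed for processing the spacers of the precursor RNA, NOP7 had signals of 3524 and 3352 in controls against 1920.5 and 1448 with quinine. NOP7 was thus at 48.5% of control, while YTM1 was at 72.8% and ERB1 at 84.6%. YTM1 had signals of 3664 and 3220.0 in controls against 2872 and 2179 with quinine, lower without overlap. In the pair of Ebp2 and Brx1, EBP2 was at -0.91 ± 0.21 (SE) and BRX1 at -0.39 ± 0.21 (SE). Differences between genes of a complex were not tested.

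Of the other complexes, some were closer together and others were also spread. SSF1, RRP14 and RRP15, whose products sit side by side in the nucleolar particle, were at 33.8%, 41.2% and 39.7% of control. RPF2 and RRS1 were at 42.0% and 49.6%. In the group of Nsa1, Rrp1, Rpf1 and Mak16, RRP1 and MAK16 were at 42.3% and 45.0% of control, NSA1 at 56.2% and RPF1 at 66.5%. RRP1 had signals of 1736 and 1445 in controls against 794 and 564 with quinine, and MAK16 had 513 and 566 in controls against 219 and 269 with quinine. NSA1 had signals of 1879 and 1787 in controls against 1135 and 933 with quinine, and RPF1 had 969 and 767 in controls against 663 and 495 with quinine. All 4 genes were fully separated, against 29.8% of all genes, and RPF1 had the smallest gap. NOC2 was at 56.6% and its later partner NOC3 at 56.9%, while its earlier partner MAK21 was at 35.2%. DBP6 and NOP8, which act in 1 complex of the first particles with Urb1, Urb2 and Rsa3, were at 92.3% and 62.0%. The 3 others of that complex, not among the 51, were lower too, with URB2 at 81.7%, URB1 at 64.8% and RSA3 at 46.2%.

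**Figure D4:**
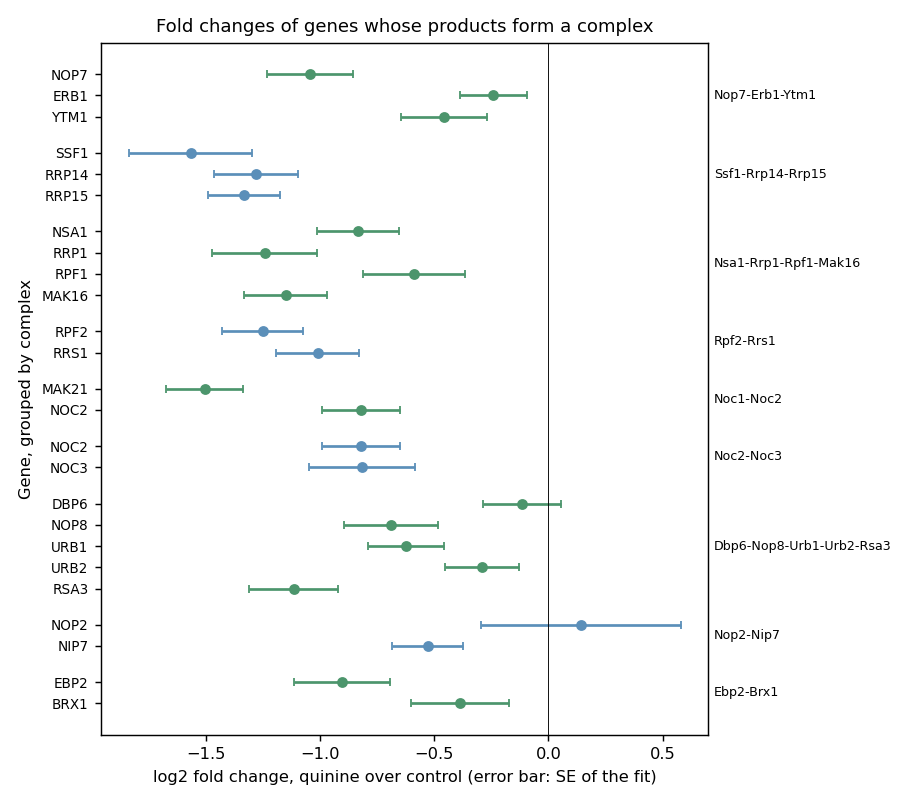
Log2 fold change of genes whose products form a complex (horizontal axis, error bars are standard errors of the fit), grouped by complex, with alternating colours only to separate neighbouring complexes. NOP7 and ERB1, or MAK21 and NOC2, stand apart, while SSF1, RRP14 and RRP15 all lie under -1.2.

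The order of the 4 arrays was often the same. In 34 of the 51 members the signals ran from control 1 down through control 2 and quinine 1 to quinine 2, against 11.5% of all genes. This order needs fully separated groups, which 47 members and 1528 of all 5132 genes had. It was seen in 34 of those 47 members and in 589 of those 1528 genes. Control 1 was above control 2 in 41 members, where 56.0% of all genes did so, and quinine 1 was above quinine 2 in 42 members, where 68.6% of all genes did so. Relative to the control mean, the members' median level was 0.09 on control 1, -0.09 on control 2, -0.68 on quinine 1 and -0.99 on quinine 2. The distance between the groups was thus larger than the distance within either group.

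In the authors' deposited table, 34 of the 51 members were marked as lower, against 8.30% of all genes tested. Every probe set marked in the authors' deposited table had a lower fold bound no smaller than 1.2 in size, and no source used here states the rest of the rule. With a bound of 1.5 or more in the authors' deposited table, 20 members were left, against 2.18% of all genes. By stage, 24 of 31 early factors, 5 of 10 middle factors, 1 of 5 export-stage factors and 4 of 5 unplaced factors were marked in the authors' deposited table. The export-stage gene marked there was REI1. The median size of the fold over the 51 members was 1.81 in the authors' deposited table, and that of SSF1 was the highest at 3.03, with bounds of 1.81 and 4.50.

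A list of 45 other large subunit assembly factors, drawn from general knowledge, had 44 tested genes. All 44 were lower, against 53.3% of all genes, around a median of -0.71 (log2 fold change). The groups were fully separated in 39 of them, against 29.8% of all genes. At an unadjusted p under 0.05, 33 were lower, against 12.0% of all genes, with 0 past the adjusted p in limma. CGR1 had the lowest value, -1.21 ± 0.18 (SE), with signals of 823 and 1028 in controls against 386 and 413 with quinine. RSA3 followed at -1.11 ± 0.19 (SE) and ALB1, the partner of Arx1, at -1.11 ± 0.21 (SE). These values lie among those of the lower early members.

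Within that list, 12 genes whose products act in export or in the cytoplasm were grouped after their values were seen, to set them beside the 5 export-stage members. Their median log2 fold change was -0.73, against -0.70 for the 32 remaining genes, so these medians were about level. ALB1 was the lowest at -1.11, LSG1, a GTPase that helps to release Nmd3, was at -0.91, and ECM1, an export factor, was at -0.87. JJJ1, which works with Rei1, was at -0.84, and YVH1, which releases Mrt4, at -0.76. By contrast the general export receptor gene MEX67 was at -0.13 and REH1, a paralog of REI1, at -0.09, both with overlapping arrays.

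Small subunit assembly factors were lower in 53 of 53 tested genes, against 53.3% of all genes, around a median of -0.79 (log2 fold change). Of these 51 were fully separated, against 29.8% of all genes. FAL1, a helicase, was lowest among them at -1.34 ± 0.22 (SE), with UTP7 and UTP30 at -1.27 ± 0.20 and -1.25 ± 0.21 (SE). Among the genes of the large subunit's own ribosomal proteins, 40 of 54, or 74.1%, were lower, against 53.3% of all genes. Their differences were small: the median was -0.04 and the lowest value, that of RPL36B, was -0.34 ± 0.17 (SE). The groups were fully separated with quinine lower in 11 of the 54, or 20.4%, against 29.8% of all genes. At an unadjusted p under 0.05, 0 of the 54 were lower, against 12.0% of all genes, and 0 passed the adjusted p in limma. Of 81 such protein genes 54 were tested, and probe sets that name several genes were left out.

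Genes of regulators known to act on ribosomal genes were divided in sign. Of 13 tested, 4 were lower, against 53.3% of all genes, and 9 were higher. The median was 0.04 on the log2 scale. The groups overlapped in 10 of the 13, where 2590 of all 5132 genes did so, and the direction is uncertain in those 10. TOD6, a repressor of ribosome biogenesis genes, had signals of 1436 and 1474 in controls against 938 and 687 with quinine, at -0.86 ± 0.21 (SE). DOT6, its paralog and also a repressor, had signals of 1732 and 2051 in controls against 2678 and 2127 with quinine, at 0.34 ± 0.19 (SE). The 2 paralogs thus had opposite signs, each without overlap of arrays. Such separation was seen in 29.8% of all genes with quinine lower, and in 1014 of 5132 genes with quinine higher. For DOT6 quinine 2 lay only just above control 2, and its unadjusted p was 0.126 in limma. The difference between the paralogs was not tested. IFH1, a coactivator of ribosomal protein genes, was at -0.61 ± 0.23 (SE). Its partner FHL1 had low signals of 61.0 and 104 in controls against 47.7 and 70.8 with quinine. The groups of FHL1 overlapped, and its log2 fold change was -0.46 ± 0.34 (SE). SFP1, an activator of both gene classes, was at 0.10 ± 0.24 (SE), and STB3, a repressor, at 0.13 ± 0.18 (SE).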

How the data were processed

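Signals of 4 arrays, 2 control and 2 quinine, were used as deposited by the authors: linear signal intensity, 1 value for each array feature (probe set). MAS5 is listed in the submitters' processing notes without a version, and no source used here states the scaling. Per the file headers, the authors' table also holds group means, standard errors and signed folds with bounds (their own scores). The share of arrays called Present is deposited there as a percent.

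Of 7519 probe sets, 5293 named 1 open reading frame found in a RefSeq gene table (assembly R64), which gave current symbols, and 480 named several genes and were left out. Genes Present on at least 2 arrays were kept, with the brightest probe set of each, which left 5132. No build is named for the array features, so no coordinates are given.

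Log2 signals, with no pseudocount, were fitted with limma 3.58.1 in R 4.3.3 by lmFit and eBayes (trended variance, 2 residual degrees of freedom, prior 3.86), with Benjamini-Hochberg adjustment over all genes and a threshold of 0.05. The fit was tested on simulated data. Signals are given as mean ± SD, and the number of arrays limits the precision. Members, stages, complexes and lists came from general knowledge and were chosen with earlier results of these data known. In each stage the 4 lowest and 2 highest members, and those with several probe sets, were to be given on every array, and in each other list the 3 largest changes. Other members and genes named were chosen after their values were seen. Alternatives were quantile or median scaling, a pseudocount of 50, no trend, other filters, averaged probe sets, a replicate block, other stage placements and each array left out.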

Additional observations from a re-analysis of the deposited data

How the results depend on the processing

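The members' count of lower genes was 50 under each alternative that kept all 4 arrays, and lay between 48 and 51 with 1 array left out. Their median log2 fold change, -0.87, was between -0.87 and -0.80 under the other scalings, filters and the pseudocount, and between -0.99 and -0.68 with 1 array left out. With 1 array left out, the early median lay between -1.00 and -0.84, the middle median between -1.03 and -0.48, the export median between -0.71 and -0.25, and the count at an unadjusted p under 0.05 between 27 and 45. The count past the adjusted p lay between 0 and 4 there. Each such fit leaves a lone array in 1 group, which is assumed to vary like the others. The share of all genes lower at an unadjusted p under 0.05 in limma also moved between these fits. It lay between 4.91% without quinine replicate 2 and 9.84% without control replicate 1. The early minus export gap of -0.44 was -0.50 with other stage placements. It was smaller with quantile scaling, at -0.39, and with a pseudocount of 50, at -0.35. With a lower bound of 1.5, the authors' deposited table held 20 members, where 2.18% of all genes met it, in place of 34. With 1 array left out, TIF6 ranged from -0.58 to 0.13, NOP2 from -0.56 to 0.84 and DBP6 from -0.23 to 0.00072, and the cause was not tested.

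With the replicate number as a block, 47 members passed the adjusted p in limma, where 16.9% of all genes passed as lower, against 0 without it. That fit has 1 residual degree of freedom and an unlimited prior. The labels do not say that a number marks a shared culture or day. Across genes, the difference between the control arrays and that between the quinine arrays had a correlation of 0.62, as a hint from the data and not the design.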

Other observations

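Genes next to the members were read from the order of 6021 protein-coding genes in the reference table. No 2 members were direct neighbours. Neighbours from the other assembly factor lists were 4: RRP3, a helicase of the small subunit pathway, beside SSF1 at -0.57, LCP5 beside NSA2 at -0.91, DBP8 beside NMD3 at -1.23 and NOC4 beside RRP15 at -0.24. Of 87 other neighbours tested, 64.4% were lower with quinine and 41.4% had both quinine arrays below both control arrays, where 53.3% and 29.8% of all genes did so. Their median log2 fold change was -0.12. It was -0.19 over the 23 in divergent arrangement, which share an upstream region with the member, -0.15 over 35 in tandem and -0.02 over 29 in convergent arrangement. The 87 other neighbours were defined only as lying outside those lists. Ribosome biogenesis genes such as ESF2 and GAR1 are therefore counted among them. The neighbours' values are a description, with no test.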
